A study of Homo sapiens with 6 samples.

Results

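The sites described here are the accessible sites around 9 genes of haem synthesis: ALAS1, ALAS2, ALAD, UROS, UROD, CPOX, PPOX and FECH, which code for enzymes of the pathway, and SLC25A37, which codes for a mitochondrial iron carrier. The list does not hold every enzyme of the pathway. A site was a member if it overlapped the body of one of these genes or the 20 kb on either side of it. Of the 181135 sites in the deposited table, 85 were members, from 5 around UROD to 14 around SLC25A37. Accessibility was measured by ATAC-seq, in which a transposase cuts and tags DNA where chromatin is open, in K562 cells. K562 is a human leukaemia line with erythroid features, labelled wild type in all groups. The groups were 0, 6 and 72 h of PMA at 25 nM, with 2 libraries at each time. PMA is a phorbol ester, an activator of protein kinase C, and it pushes this line to take on megakaryocyte features. The comparisons ask which of these sites gained or lost accessibility by 6 h and by 72 h.

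Haem is made from glycine and succinyl-CoA in a chain of reactions that starts in the mitochondrion, passes through the cytosol and ends in the mitochondrion, where iron is inserted into protoporphyrin. The first step has a housekeeping enzyme, ALAS1, and an erythroid one, ALAS2, and it sets the rate of the pathway. Red cell precursors make haem in bulk for haemoglobin, and in these cells GATA1 and its partners bind introns and distal elements of several of the genes. Megakaryocytes share much of this lineage's regulatory machinery but make no haemoglobin.

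Reads in the listed sites summed to between 12258890 and 35548737 per library, and the 6 h libraries, at 12258890 and 33634403, differed most in depth. Levels below are CPM, counts scaled to a common library size after TMM (trimmed mean of M-values) adjustment. Start sites of the erythroid markers GATA1, TAL1, EPOR and TFRC were present, and the sum of the strongest site of each went from 160 and 170 CPM at 0 h to 102 and 107 CPM at 6 h and to 58.8 and 58.1 CPM at 72 h, with 4 of 4 called lower at both times. The median log2 changes of these 4 were −0.68 at 6 h and −1.46 at 72 h. Among all sites at protein-coding gene starts, defined below, 38.3% and 73% were called lower, with medians of −0.38 and −1.21. Under other scalings of the libraries, described below, the fewest of the 4 markers called lower were 2 at 6 h and 3 at 72 h. With loess offsets, also described below, the median of the 4 at 72 h was −0.37, beside −0.38 for all sites at gene starts. Megakaryocyte markers had a site at a start or gene end for 3 of 4 genes, and PF4 had none. The sums were 40.4 and 40.8 CPM at 0 h, 24.8 and 25.2 CPM at 6 h and 23.6 and 24.9 CPM at 72 h. ITGB3, like CD3E and MS4A1 below, had no promoter entry, so its site may lie at the far end of the gene. The GP9 site held at most 0.506 CPM, overlapped a deposited peak in 1 library and was not tested. Of the 2 that could be tested, both were called lower at 72 h with TMM and RLE and neither with the other 3 scalings, with a median of 0.26 under shared-peak factors, defined below. Of markers of unrelated cell types, hepatocyte genes had a site at 0 of 3, T cell genes at 1 of 3 (CD3E, 12.2 and 19.2 CPM at 0 h), B cell genes at 2 of 3 (CD79A, 7.08 and 9.94 CPM, and MS4A1, at most 0.26 CPM, all at 0 h) and epithelial genes at 1 of 2 (KRT5, 1.30 and 1.86 CPM). The part of the marker changes in the results below was not tested. A loss of reads in a bulk library can come from fewer cells with an open site or from less opening per cell, and these cannot be told apart. Nothing in the labels says that the 2 libraries at a time came from separate cultures, so the p-values measure only the spread between these libraries, which may be technical.

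The sequence before the gene start is shown for 4 genes whose starts carry the contrast described below: ALAS2, the erythroid enzyme, which had no accessible site at its start, and ALAS1, CPOX and FECH, which had one. The letters are the 250 bases upstream of the annotated start, 5′ to 3′ on the strand of the gene, from RefSeq (GRCh38.p14). They cover chrX:55030978-55031227 for ALAS2 (minus strand), chr3:52197833-52198082 for ALAS1 (plus strand), chr3:98593612-98593861 for CPOX (minus strand) and chr18:57586703-57586952 for FECH (minus strand). Capitals mark GATAA, the core of the motif of GATA factors, and CACCC, the core of the motif of KLF factors, on either strand (TTATC and GGGTG are the same motifs on the other strand).
ALAS2: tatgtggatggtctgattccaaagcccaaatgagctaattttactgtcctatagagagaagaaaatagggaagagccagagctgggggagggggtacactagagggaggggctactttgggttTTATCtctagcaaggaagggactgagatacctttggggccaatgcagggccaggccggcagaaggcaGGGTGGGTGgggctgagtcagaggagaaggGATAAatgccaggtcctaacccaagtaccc
ALAS1: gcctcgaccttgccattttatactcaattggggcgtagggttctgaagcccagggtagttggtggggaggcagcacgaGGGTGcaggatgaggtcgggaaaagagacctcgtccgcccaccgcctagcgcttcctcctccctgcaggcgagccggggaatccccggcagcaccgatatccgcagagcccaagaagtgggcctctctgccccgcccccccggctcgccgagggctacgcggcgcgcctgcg
CPOX: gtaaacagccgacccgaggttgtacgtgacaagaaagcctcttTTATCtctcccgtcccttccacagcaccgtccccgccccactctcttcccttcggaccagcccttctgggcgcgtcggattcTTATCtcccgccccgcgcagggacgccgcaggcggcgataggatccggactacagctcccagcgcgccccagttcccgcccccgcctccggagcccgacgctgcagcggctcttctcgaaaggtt
FECH: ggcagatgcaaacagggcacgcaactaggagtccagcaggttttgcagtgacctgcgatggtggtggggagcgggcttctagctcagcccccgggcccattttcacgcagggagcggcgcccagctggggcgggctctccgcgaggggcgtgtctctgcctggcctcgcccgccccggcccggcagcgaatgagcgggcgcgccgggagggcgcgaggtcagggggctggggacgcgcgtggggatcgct

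Positions are those of the 5′-most base of a match, with −1 the base before the start. The ALAS2 window held GATAA at −127 and −30, CACCC at −60 and −56, which overlap each other, and the AP-1-like motif TGANTCA at −47, and it held no GGGCGG, the GC box. CPOX held GATAA at −207 and −125 and 3 GC boxes, at −175, −118 and −50, and CACCC at 44, after the printed bases. ALAS1 held CACCC at −172, GC boxes at −138 and −41, and TGCGCA, a half-site of the NRF1 motif, at −4 and 27. FECH held neither capitalised motif and had GC boxes at −123, −81 and 20. Among 35116 RefSeq promoter windows of the same 300 bases (250 before and 50 after the start), 22.7% held GATAA, 59.9% CACCC, 7.71% TGANTCA, 45% GGGCGG and 8.24% TGCGCA, on either strand. Windows were found for 7 of the 9 genes, and GATAA was present in 3 of them: ALAS2, CPOX and PPOX. The ALAS2 window had a GC content of 52.7% and 3 CpG, against 67% and 27 CpG for ALAS1, 66% and 31 for CPOX and 74% and 34 for FECH. Of the genes not printed, which also had accessible starts, UROD had 54% and 13 CpG. The 2 PPOX windows had 60.3% and 25 CpG and 62.3% and 21, and the 2 ALAD windows 71.3% and 24 and 73.3% and 28. The median GC content of 22199 windows of protein-coding genes was 62.3%. A match is a description of the letters, not a bound site.

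At 72 h the haem synthesis genes had less accessible starts and a mixed change elsewhere. All 9 sites within 1000 bases of the annotated start of a member gene (start sites) fell, with a median of −1.41 on the log2 scale, and so did most starts of the genome: 73% of the 17723 tested sites within 1000 bases of a protein-coding gene start were called lower, with a median of −1.21. Throughout, both ends of a gene without a promoter entry counted as starts, except for UROS and SLC25A37. Away from gene starts, 25 of 61 tested sites fell and 17 rose, whereas among all sites farther from gene starts 24.4% were called lower and 41.4% higher. The median of these 61 sites, which lie in the gene bodies or in the flanks, was −0.35 against 0.51 for all such sites. A change was called at an adjusted p under 0.05 in edgeR's quasi-likelihood test fitted to all sites, with Benjamini-Hochberg adjustment over the 177759 sites tested. Of the members 83 were tested, and the 2 left out for low counts both lie in the body of ALAS2. Over all 83 sites 62 were called at 72 h (19 higher, 43 lower), which is 74.7% against 67.4% of all tested sites (38.2% higher and 29.2% lower). At gene starts in general 9.7% of sites were called higher. At the stricter threshold of an adjusted p under 0.01 with an absolute log2 change above 1, 48 of the 83 tested members were called. Among all tested sites the share was 51.4%.

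The scaling of the libraries moves these values. With TMM the median of all tested sites at 72 h was 0.29, and under the other 4 scalings tried it was 0.11 (RLE, the size factors of the DESeq2 type), 0.79 (total counts), −0.04 (loess offsets over the mean count) and 1.26 (TMM factors computed only on sites where every library had a deposited peak, called shared-peak factors below). The median of the 9 start sites was −1.41, −1.59, −0.91, −0.19 and −0.44 under the same 5 scalings in that order, beside −1.21, −1.39, −0.71, −0.38 and −0.24 for all sites at gene starts. The 61 body and flank sites had a median of −0.35, −0.54, 0.14, −0.55 and 0.61, and their higher and lower calls were 17 and 25, 12 and 30, 22 and 20, 8 and 25, and 29 and 14. Over all 83 tested members the split of 19 higher and 43 lower became 14 and 48, 25 and 35, 10 and 37, and 32 and 23 under the other 4. Listed sites that overlapped a deposited peak numbered 57420 and 64747 in the 0 h libraries and 128097 and 131534 in those of 72 h, and the part of this difference in the fall of the starts was not tested. Under all 5 scalings, 14 of the 61 body and flank sites kept a lower call and 6 a higher one at 72 h, which compares with 7.81% and 28.9% of all sites farther from gene starts. Of the 9 start sites 1, at ALAS1, was called lower under all 5, against 22.5% of all sites at gene starts. The plot of medians by scaling shows that the median of the start sites stayed below 0 in every case, though not every start site did. The median of the body and flank sites lay below that of all other sites in every case. The 2 sets of sites away from starts differed in make-up. A deposited peak in both 0 h libraries was overlapped by 25 of the 61, beside 37821 of all sites farther from gene starts (160036 tested). The part of this in the medians was not tested.

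**Figure D1:**
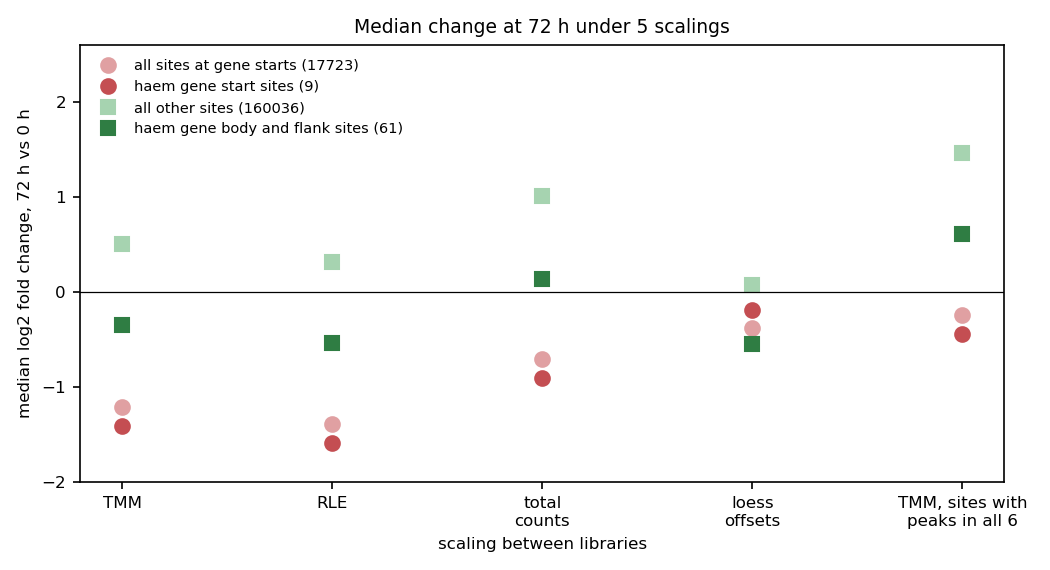
Median log2 fold change at 72 h against 0 h (vertical axis) under 5 scalings between libraries (horizontal axis), for 9 start sites of the haem synthesis genes (dark red), all 17723 sites at gene starts (light red), 61 body and flank sites of the haem synthesis genes (dark green) and all 160036 other sites (light green). The median of the body and flank sites of the haem synthesis genes lies below that of all other sites under each scaling. It changes sign, from −0.55 with loess offsets to 0.61 with shared-peak factors.

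The start sites fell in steps. At 6 h 4 of the 9 were called lower, which is 44.4% against 38.3% of all sites at gene starts (8.23% were called higher and 46.5% either way), and the median was −0.44 against −0.38. Between 6 and 72 h all 9 were called lower, with a median of −0.86 against −0.83 and a background of 65.7% lower (70.7% either way). In each of the 9 both 6 h libraries lay below both 0 h libraries and both 72 h libraries lay below both 6 h libraries. The share of all sites at gene starts with this order is not given here. Each start site overlapped a deposited peak in all 6 libraries. At 6 h RLE called all 9 start sites lower, total counts 3, loess offsets 2 and shared-peak factors 1. The fall from 6 to 72 h was called at 9 of 9 start sites with TMM and RLE, at 7 with total counts, at 1 with loess offsets and at 2 with shared-peak factors.

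**Figure D2:**
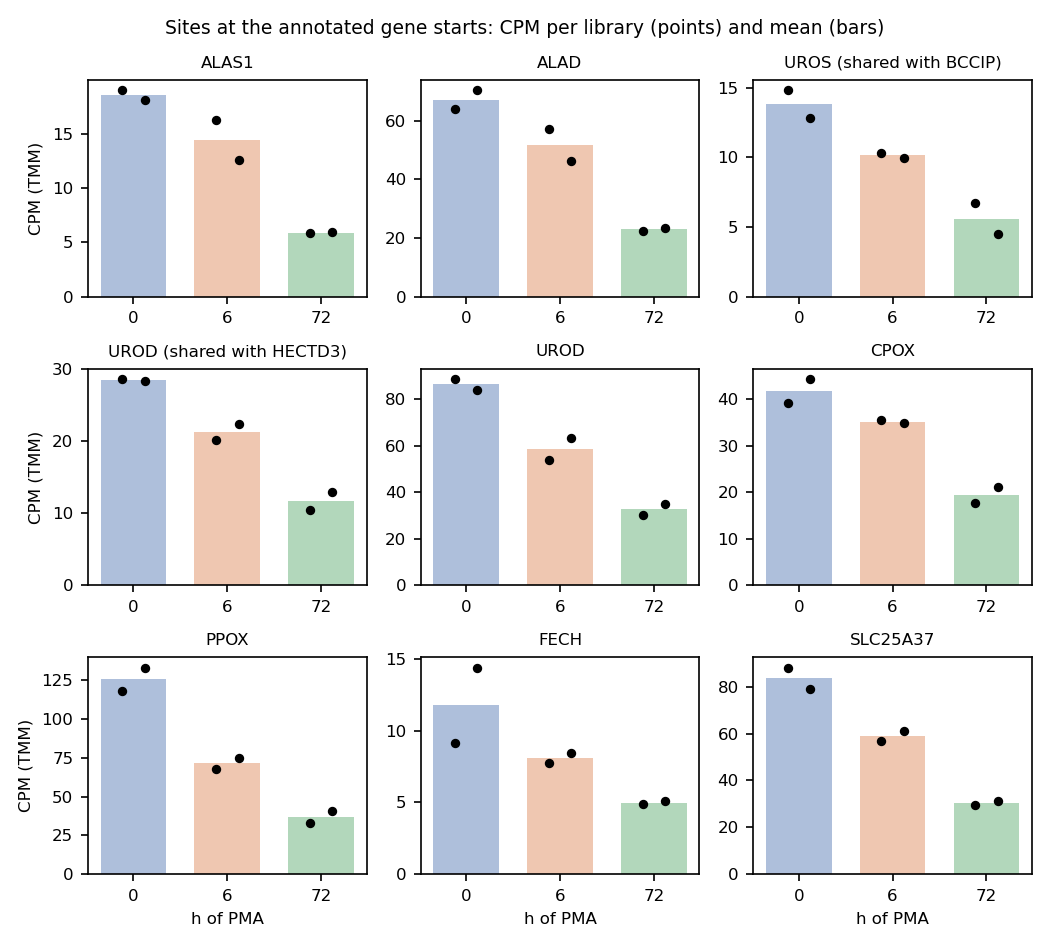
CPM (vertical axis) at the 9 start sites after 0, 6 and 72 h of PMA (horizontal axis), with the library values as points and their mean as a bar (2 libraries per time). Every site steps down from 0 h to 6 h to 72 h, with no overlap between times. The share of all sites at gene starts that do so is not given here. PPOX has the highest level, with 118 and 133 CPM at 0 h, and FECH the lowest mean at 0 h.

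For the first step of the pathway, ALAS1 (5-aminolevulinate synthase of all tissues) had 13 sites and ALAS2 (its erythroid form, on the X chromosome) had 10. The ALAS1 start site, chr3:52197677-52198466, held 19 and 18.1 CPM at 0 h, 16.3 and 12.6 CPM at 6 h and 5.87 and 5.94 CPM at 72 h. Its fall came late: −0.37 ± 0.19 (SE) on the log2 scale at 6 h (adjusted p = 0.134) and −1.65 ± 0.20 at 72 h (adjusted p = 2.7e-07). ALAS2 had no site within 1000 bases of its start, so its promoter window printed above has no value, and its accessible sites were in the gene body and beyond.

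The most accessible site of the ALAS2 body, chrX:55014720-55015596, 15.8 kb downstream of the start, held 18.6 and 18 CPM at 0 h, 6.31 and 4.39 CPM at 6 h and 5.33 and 6.74 CPM at 72 h. It fell by 1.81 on the log2 scale at 6 h (SE 0.23, adjusted p = 2e-06) and by 1.60 at 72 h (SE 0.22, adjusted p = 1.6e-06), and its 6 h and 72 h libraries overlapped. The other strong site of the body, chrX:55027870-55028614, 2.73 kb downstream of the start and inside the annotated interval of PAGE2B as well, dropped from 13.8 and 9.65 CPM to 1.96 and 1.83 CPM at 6 h and 2.25 and 1.93 CPM at 72 h. Both of these sites were called lower at 6 h and at 72 h under all 5 scalings, and the latter changed by −2.63 at 6 h (adjusted p = 2e-07) and −2.48 at 72 h (adjusted p = 4.5e-08). Another site, at the 3′ end of ALAS2, chrX:55008708-55009313, 22.0 kb from the start and over the end of APEX2, went the other way. It held 0.715 and 1.34 CPM at 0 h, 0.426 and 0.790 CPM at 6 h and 2.66 and 2.55 CPM at 72 h. Its rise of 1.30 at 72 h (SE 0.39, adjusted p = 0.0058) was lost without the first 0 h library (0.95, adjusted p = 0.0607), with loess offsets (0.53, adjusted p = 0.26) and with DESeq2 (1.14, adjusted p = 0.063).

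Around ALAS1 the sites moved in both directions. The most accessible site outside gene starts, chr3:52188661-52189606, 8.95 kb upstream of the ALAS1 start, held 10.9 and 8.89 CPM at 0 h, 1.87 and 2.18 CPM at 6 h and 1.97 and 1.72 CPM at 72 h. It fell by 2.25 on the log2 scale at 6 h (SE 0.28, adjusted p = 1.1e-06) and by 2.41 at 72 h (SE 0.26, adjusted p = 6.3e-08). A site 2.16 kb upstream, chr3:52195588-52196259, rose from 2.27 and 2.05 CPM to 4.52 and 6.48 CPM at 6 h and 5.59 and 4.43 CPM at 72 h, a log2 change of 1.38 (adjusted p = 0.00069) and 1.21 (adjusted p = 0.0008). At both sites the 6 h and 72 h libraries overlapped each other and neither overlapped the 0 h libraries. Both kept their call under all 5 scalings at both times. Of the 9 tested body and flank sites of ALAS1, 4 were higher and 4 lower at 72 h, beside 41.4% and 24.4% of all sites farther from gene starts, and 2 and 2 held under all 5 scalings.

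**Figure D3:**
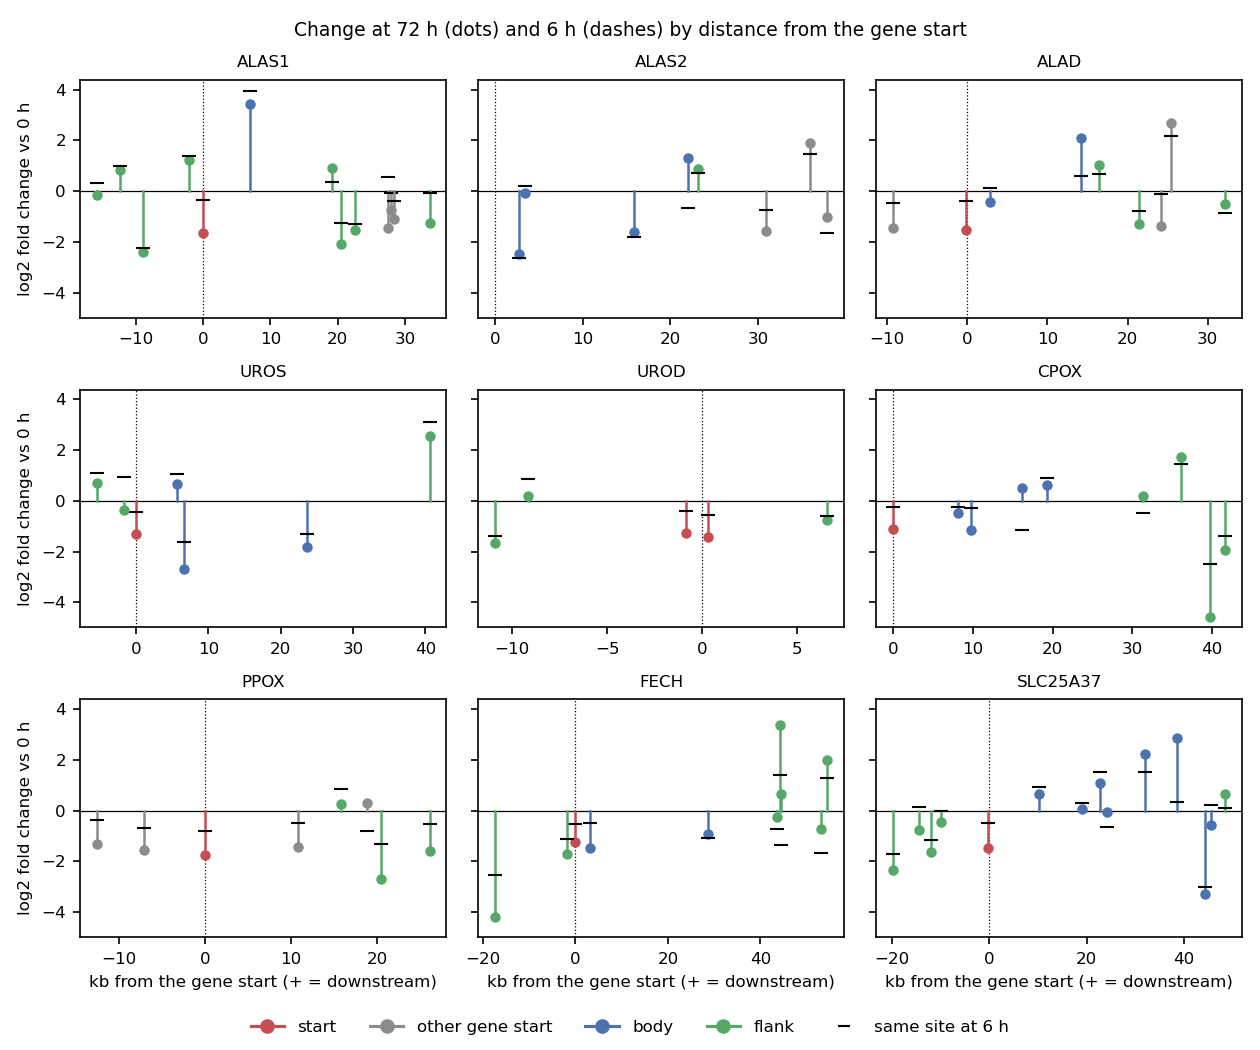
Log2 fold change at 72 h against 0 h (dots with stems) and at 6 h against 0 h (black dashes) for each of the 83 tested sites, by distance in kb from the start of the gene, with positive values downstream. Colours give start sites, starts of other genes, gene bodies and flanks. Start sites (red) all point down, and sites in bodies and flanks point both ways. The highest points of ALAS1 and FECH rest on 2 counts in the 0 h libraries together.

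The next steps run in the cytosol. ALAD, which joins 2 molecules of aminolevulinate into porphobilinogen, had 9 sites, and its start site, chr9:113400958-113401838, held 63.9 and 70.3 CPM at 0 h, 57.2 and 46.1 CPM at 6 h and 22.5 and 23.5 CPM at 72 h. The 6 h change of −0.38 (adjusted p = 0.0414) was not called without the second 0 h library (−0.31, adjusted p = 0.173) or the second 6 h library (−0.29, adjusted p = 0.26), whereas the fall of 1.55 at 72 h (SE 0.15, adjusted p = 1.4e-08) was kept without any 1 library. With loess offsets the 72 h value was −0.19 (adjusted p = 0.228). In the ALAD body itself 1 of 2 tested sites was called at 72 h, a rise, and the stronger falls lay in the flank beyond its 3′ end. There the site 21.5 kb from the start, chr9:113379331-113380000, went from 12.7 and 10.6 CPM to 8.18 and 5.72 CPM at 6 h and 5.12 and 4.32 CPM at 72 h. Its changes were −0.77 at 6 h (adjusted p = 0.0132; −0.56 and adjusted p = 0.151 without the second 6 h library) and −1.30 at 72 h (adjusted p = 5e-05; −0.33 and adjusted p = 0.213 with shared-peak factors). The site with the highest level, chr9:113368299-113369528, 32.2 kb from the start and inside BSPRY, fell by 0.85 at 6 h (adjusted p = 0.00415). Its 72 h value of −0.50 (adjusted p = 0.0424) was not called without the first 0 h library (−0.29, adjusted p = 0.298) or either 72 h library (−0.66 and −0.36, adjusted p = 0.0622 and 0.299), and it was 0.00 with total counts and 0.47 with shared-peak factors.

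UROS, which closes the ring to uroporphyrinogen III, had 7 sites, with large changes in both directions away from its start. Its start site, chr10:125822773-125823867, is shared with the neighbouring gene BCCIP, so the 2 starts cannot be told apart. It held 14.8 and 12.8 CPM at 0 h, 10.3 and 9.96 CPM at 6 h and 6.72 and 4.46 CPM at 72 h, a change of −0.44 at 6 h (adjusted p = 0.12) and −1.30 at 72 h (SE 0.22, adjusted p = 2.8e-05; −0.33 and adjusted p = 0.196 with shared-peak factors). A site in the gene body with about the CPM of the start site at 0 h, chr10:125816102-125817030, 6.69 kb downstream, held 14.8 and 13.3 CPM at 0 h, 4.77 and 4.43 CPM at 6 h and 2.17 and 2.22 CPM at 72 h. It fell by 1.62 at 6 h (SE 0.23, adjusted p = 8.8e-06) and by 2.67 at 72 h (SE 0.23, adjusted p = 4.2e-09), and the further fall between 6 and 72 h was called with TMM (−1.06, adjusted p = 0.00143). Beyond the 3′ end, 40.6 kb from the start, the site chr10:125782193-125783138 rose from 1.04 and 0.764 CPM to 6.73 and 8.44 CPM at 6 h, and it held 4.94 and 5.52 CPM at 72 h. Its log2 change was 3.11 at 6 h (SE 0.32, adjusted p = 9e-08) and 2.55 at 72 h (SE 0.31, adjusted p = 3.8e-07), and it overlapped a deposited peak in both 6 h and both 72 h libraries and in neither 0 h library. The fall in the body and the rise beyond the 3′ end were called under all 5 scalings at both times. All 6 body and flank sites of UROS were called at 6 h with TMM, 4 higher and 2 lower, beside 39.4% of all sites farther from gene starts (25% higher and 14.4% lower), and 4 of the 6 held under all 5 scalings.

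UROD, which removes carboxyl groups from uroporphyrinogen, had 5 sites. With TMM 4 were called lower at 72 h: both start sites and 2 of 3 flank sites. Among all sites, 73% of those at gene starts and 24.4% of those farther away were called lower. Both start sites lie near the start of HECTD3 as well. The stronger one, chr1:45011826-45013222, held 88.6 and 84.1 CPM at 0 h, 53.8 and 63.3 CPM at 6 h and 30.2 and 35 CPM at 72 h. It changed by −0.56 at 6 h (adjusted p = 0.00315; −0.45 and adjusted p = 0.0592 without the first 6 h library) and by −1.41 at 72 h (SE 0.14, adjusted p = 2.7e-08), and with loess offsets its 72 h value was 0.09 (adjusted p = 0.538). The weaker one, chr1:45011011-45011754, inside HECTD3, held 28.6 and 28.3 CPM at 0 h and 10.5 and 13 CPM at 72 h, a change of −1.28 (SE 0.17, adjusted p = 1.3e-06; −0.31 and adjusted p = 0.098 with shared-peak factors). In the upstream flank, 10.9 kb away, chr1:45001024-45001681 went from 4.16 and 3.11 CPM to 1.28 and 1.45 CPM at 6 h and 1.19 and 1.08 CPM at 72 h. That is −1.38 at 6 h (adjusted p = 0.00345) and −1.66 at 72 h (SE 0.33, adjusted p = 0.00016; −0.70 and adjusted p = 0.074 with shared-peak factors). The site 6.58 kb downstream of the start, chr1:45018519-45019141, inside ZSWIM5, fell by 0.75 at 72 h (adjusted p = 0.00865). That call was not kept without the second 0 h library or either 72 h library (adjusted p = 0.0975, 0.0718 and 0.0578), and the value was 0.22 with shared-peak factors.

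The last enzymes work in the mitochondrion. CPOX, which makes protoporphyrinogen from coproporphyrinogen, had 9 sites and, with TMM, the start site with the smallest fall: chr3:98593103-98594236 held 39.2 and 44.4 CPM at 0 h, 35.5 and 35 CPM at 6 h and 17.8 and 21.1 CPM at 72 h. The value was −0.25 at 6 h (SE 0.15, adjusted p = 0.208) and −1.10 at 72 h (SE 0.15, adjusted p = 2.2e-06). The 72 h value was 0.03 with loess offsets and −0.14 with shared-peak factors (adjusted p = 0.861 and 0.41). In the CPOX body the most accessible site, chr3:98583557-98584298, 9.68 kb from the start, followed the same course. It held 13.5 and 10.6 CPM at 0 h, 11.8 and 8.22 CPM at 6 h and 5.38 and 5.52 CPM at 72 h, with −0.28 at 6 h (adjusted p = 0.34) and −1.14 at 72 h (SE 0.23, adjusted p = 0.00015; −0.17 and adjusted p = 0.511 with shared-peak factors). A distal site, chr3:98551614-98552297, 41.7 kb from the start and beyond the 3′ end, fell early instead, from 6.56 and 5.02 CPM to 3.32 and 1.52 CPM at 6 h and 1.37 and 1.63 CPM at 72 h. Its change was −1.37 at 6 h (SE 0.34, adjusted p = 0.00296; −0.85 and adjusted p = 0.0913 without the second 6 h library) and −1.94 at 72 h (SE 0.33, adjusted p = 2.5e-05), and it was called lower under all 5 scalings at both times.

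PPOX, which oxidises protoporphyrinogen to protoporphyrin, had 8 sites and the most accessible start of the group. The start site, chr1:161165858-161166985, held 118 and 133 CPM at 0 h, 67.7 and 75 CPM at 6 h and 32.7 and 40.8 CPM at 72 h. With TMM its fall was the largest of the start sites in value, though within the errors of that of ALAS1 at 72 h. It was −0.81 at 6 h (SE 0.14, adjusted p = 7.8e-05) and −1.77 at 72 h (SE 0.14, adjusted p = 1.5e-09). The 6 h fall was called under all 5 scalings, and the 72 h fall under 4 of the 5, with −0.13 (adjusted p = 0.35) under loess offsets. The remaining PPOX sites lie beyond its body or at other genes. A site inside ADAMTS4, 20.5 kb from the start, chr1:161186802-161187392, went from 4.35 and 4.11 CPM to 1.62 and 1.71 CPM at 6 h and 0.466 and 0.825 CPM at 72 h, a change of −1.33 at 6 h (adjusted p = 0.00405) and −2.69 at 72 h (adjusted p = 1.1e-06). The flank site with the highest mean over the 3 times, chr1:161182118-161182734, 15.8 kb from the start, held 3.57 and 5.97 CPM at 0 h, 9.20 and 8.44 CPM at 6 h and 5.56 and 5.82 CPM at 72 h. It rose at 6 h by 0.86 (SE 0.26, adjusted p = 0.0103), was not called without the first 0 h library (0.49, adjusted p = 0.153) or with DESeq2 (0.72, adjusted p = 0.0524), and was 1.30 without the second 0 h library. At 72 h its value was 0.24 (adjusted p = 0.415), and the 72 h libraries lay between the 0 h libraries. The flank site that was highest at 0 h, inside ADAMTS4 and 26.1 kb from the start, with 6.76 and 10.4 CPM, was chosen after its values were seen. It held 2.59 and 3.18 CPM at 72 h, a change of −1.58 (adjusted p = 1.5e-05) that was called under all 5 scalings.

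FECH, ferrochelatase, which inserts the iron, had 10 sites, and its body held a site more accessible than its start. The start site, chr18:57586325-57587077, held 9.16 and 14.4 CPM at 0 h, 7.75 and 8.47 CPM at 6 h and 4.91 and 5.07 CPM at 72 h, with −0.54 at 6 h (adjusted p = 0.0717) and −1.25 at 72 h (SE 0.23, adjusted p = 7.6e-05). The body site 3.28 kb downstream, chr18:57582962-57583880, held 21.4 and 24.3 CPM at 0 h, 18.5 and 14.5 CPM at 6 h and 8.22 and 8.16 CPM at 72 h. Its 6 h change of −0.48 (adjusted p = 0.0418) was not called without the second 0 h library (−0.39, adjusted p = 0.179) or the second 6 h library (−0.36, adjusted p = 0.251). Its fall of 1.48 at 72 h (SE 0.19, adjusted p = 5.3e-07) was called under all 5 scalings, unlike that of the start site, which was −0.27 (adjusted p = 0.288) with shared-peak factors. The deepest loss of the gene was 17.3 kb upstream, inside NARS1, at chr18:57603796-57604290: 3.77 and 2.25 CPM at 0 h, 0.511 and 0.506 CPM at 6 h and 0.155 and 0.165 CPM at 72 h. That is −2.54 at 6 h (SE 0.47, adjusted p = 0.00016) and −4.18 at 72 h (SE 0.49, adjusted p = 2e-07), called under all 5 scalings.

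Iron reaches the enzyme through SLC25A37 (mitoferrin-1), the iron importer of the inner mitochondrial membrane in erythroid cells, which had 14 sites. The start site, chr8:23527597-23529859, the widest of all member sites at 2263 bases, held 88.1 and 79.1 CPM at 0 h, 56.8 and 61.2 CPM at 6 h and 29.5 and 31.1 CPM at 72 h. It changed by −0.50 at 6 h (adjusted p = 0.00558; −0.45 and adjusted p = 0.0575 without the first 6 h library) and by −1.46 at 72 h (SE 0.14, adjusted p = 1.1e-08), and its 72 h value was 0.02 with loess offsets. Upstream, 19.8 kb from the start, chr8:23508551-23509672 was the most accessible of the 63 body and flank sites at 0 h, with 42 and 34.2 CPM, and held 10.8 and 12.3 CPM at 6 h and 7.84 and 7.05 CPM at 72 h. It fell by 1.71 at 6 h (SE 0.18, adjusted p = 1.8e-07) and by 2.35 at 72 h (SE 0.18, adjusted p = 9.8e-10), under all 5 scalings at both times. In the body a site 38.7 kb downstream, chr8:23567289-23567942, opened late. Its libraries held 0.325 and 0.669 CPM at 0 h, 0.426 and 0.759 CPM at 6 h and 4.24 and 3.23 CPM at 72 h. The value was 0.32 at 6 h (adjusted p = 0.657), and the rise was 2.84 at 72 h (SE 0.42, adjusted p = 4.8e-06) and 2.52 between 6 and 72 h (SE 0.40, adjusted p = 3.8e-05), the last 2 under all 5 scalings. It overlapped a deposited peak in both 72 h libraries and in no other.

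**Figure D4:**
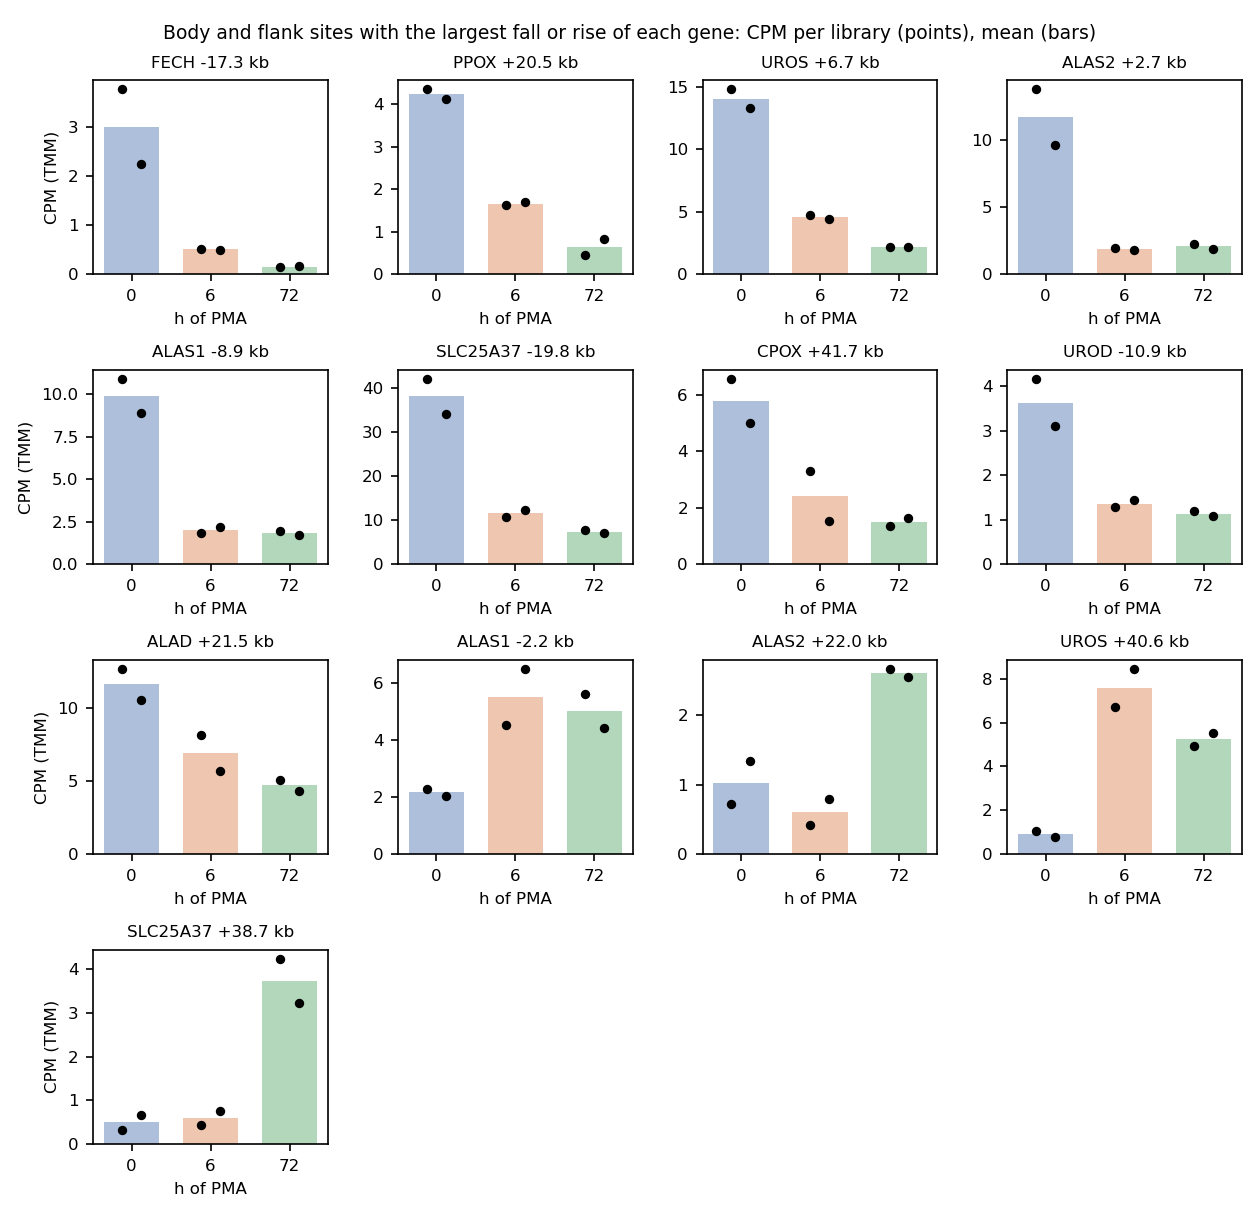
CPM (vertical axis) after 0, 6 and 72 h of PMA (horizontal axis) at the body and flank site of each gene with the largest called fall and, where there was one, the largest called rise at 72 h among sites with a mean of at least 1 CPM, with library values as points and their mean as a bar (2 libraries per time). Most falling sites, such as the SLC25A37 site 19.8 kb upstream, lose most of their level by 6 h, and the SLC25A37 site 38.7 kb downstream is under 1 CPM at 0 and 6 h and above 3 CPM at 72 h.

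At 6 h 32 of the 61 body and flank sites were called, 11 higher and 21 lower, against 39.4% of all sites farther from gene starts (25% higher and 14.4% lower), and with shared-peak factors the split was 16 higher and 14 lower. Of the 25 sites lower at 72 h, 20 (80%) were lower at 6 h too, beside 48.2% of all such sites lower at 72 h. Of the 17 higher at 72 h, 9 (52.9%) were higher at 6 h too, beside 51.4%. No site was called in opposite directions at the 2 times. Both comparisons share the 0 h libraries, so their agreement is a description. Between 6 and 72 h 20 of the 61 were called, 6 higher and 14 lower, against 39.9% of all such sites (23.9% higher), and this split turned with the scaling: it was 12 higher and 5 lower with total counts and 15 higher and 1 lower with shared-peak factors. Over all 83 sites 43 were called at 6 h (13 higher, 30 lower; 18 and 17 with shared-peak factors), 51.8% against 40.1% of all tested sites (23.4% higher and 16.8% lower). At the stricter threshold 24 of the 83 were called at 6 h, where the share of all tested sites was 23.5%. Between 6 and 72 h 37 were called (7 higher, 30 lower; 15 and 19 with total counts, 5 and 11 with loess offsets and 19 and 5 with shared-peak factors), 44.6% against 42.9%. At the stricter threshold 11 of the 83 were called between 6 and 72 h, where the share of all tested sites was 22.6%. The number called between 6 and 72 h changed when either 72 h library was left out, as given below. Among body and flank sites with a mean of at least 1 CPM, called changes at 72 h ran from −4.18 at the FECH site inside NARS1 to 2.84 at the late SLC25A37 site.

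The 25 body and flank sites that overlapped a deposited peak in both 0 h libraries included 18 called lower (72%) and 1 higher (4%) at 72 h, beside 63.3% and 9.37% of all sites of that kind farther from gene starts. The 30 with a peak in no 0 h library included 4 lower (13.3%) and 15 higher (50%), beside 6.26% and 58%. Since peaks were called on the same reads, these counts are a description only. Of the 13 sites of the windows that lie at starts of other genes, 9 were lower (69.2%) and 2 higher (15.4%) at 72 h. Among all sites at gene starts the shares were 73% and 9.7%. The median of the 13 was −1.33, against −1.21 for all sites at gene starts. The 2 that rose were near PFKFB1, in the ALAS2 window, and HDHD3, in the ALAD window, and were singled out after their values were seen. Neither lay within 500 bases of a gene start. Sites of these windows that did changed at 72 h, with TMM, by −1.38 at HDHD3 (adjusted p = 3.1e-06). The value was −1.56 at a site near the starts of APEX2 and PFKFB1 (adjusted p = 1.6e-08). The HDHD3 site that rose held 0.975 and 2.63 CPM at 0 h, 6.90 and 9.61 CPM at 6 h and 12 and 12.4 CPM at 72 h.

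Other genes of haem transport, iron-sulphur supply and haem breakdown were also mostly lower at their starts. For the strongest start site of each of 15 such genes, 12 were lower and none higher at 6 h, with a median of −0.53 beside −0.38 for all sites at gene starts, where 38.3% were called lower. In the same list 14 were lower and 1 higher at 72 h, with a median of −1.50 against −1.21 for all sites at gene starts, where 73% were called lower. With loess offsets 7 were lower at 72 h and none higher, beside 47.4% and 11.1% of all sites at gene starts, and with shared-peak factors 11 and 1, beside 36.6% and 20.9%. The list takes the strongest site of each gene, whereas all sites at gene starts include weaker ones. The median at 72 h was −0.25 with loess offsets, a smaller fall than the −0.38 of all sites at gene starts. With shared-peak factors it was −0.54 against −0.24. At 6 h each of these scalings left 3 lower, beside 24% and 10.1%. The 14 that fell include SLC25A38, which carries glycine into the mitochondrion (105 CPM on average at 0 h and 37.7 at 72 h, −1.48), ABCB10, a transporter of the inner mitochondrial membrane (145 and 35.4 CPM, −2.03), and the biliverdin reductase BLVRA (27.8 and 7.01 CPM, −1.99). The smallest fall was at CLPX, a mitochondrial protease subunit that acts on ALAS (44.7 and 20.1 CPM, −1.16). HMOX1, the inducible haem oxygenase, was the one that rose, by 1.58 (SE 0.57, adjusted p = 0.0174), from 0.455 and 0.239 CPM to 1.03 and 0.99, at a site that overlapped no deposited peak. HMOX2, the constitutive form, fell by 1.94.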

How the data were processed

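The authors deposited a table of counts per site, which are whole numbers with different totals per library and were taken as raw, and in the same table their own log2 fold changes, adjusted p-values and a class name. Each library has its own list of peaks, deposited by the authors, with a score, a fold enrichment (ratio to background) and −log10 p and q values, read here from the order of columns, since the lists have no header. The submitters' processing notes name the build hg38 and the tools Trim Galore 0.4.3, BWA 0.7.17, SAMtools 1.9, deepTools 3.0.1, MACS2, bedtools 2.26 and DESeq, with no role or order. Whether read ends were shifted for the transposase is not given in the sources used here. Peaks were used only for overlap with sites, and positions are 1-based.

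Counts were fitted with edgeR 4.0.16 in R 4.3.3 (TMM, expression filter with a minimum of 10, quasi-likelihood test, all 6 libraries in one model of 3 times). The filter left 177759 of 181135 sites. The biological coefficient of variation was 0.166, and the replicates differed by more than sampling noise. Alternatives were 4 other scalings, DESeq2 1.42.0, no filter, a stricter threshold, a replicate block, a 5 kb window, a start reach of 500 bases and leaving out each library.

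Genes were taken from a RefSeq table of GRCh38.p14 (20056 protein-coding genes; 15843 with a promoter entry, and both gene ends used for the others). UROS and SLC25A37 had no promoter entry, and their strand was added from general knowledge. Exons were not used here, so positions inside genes are given as body only. Sites named are the start sites, the most accessible body or flank site of each gene, and the largest called fall and rise at 72 h among those with a mean of at least 1 CPM. The members, gene lists and motifs were chosen with earlier results of these data known, so they are described by counts beside the background. A further erythroid marker gene is not reported here.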

Additional observations from a re-analysis of the deposited data

How the results depend on the processing

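For the 28 named sites under the alternatives, 319 values at 6 h and 335 at 72 h kept their direction and their side of the threshold, 22 and 20 lost their call, 18 and 2 gained one, and 5 and 7 turned direction. Counts of called member sites stayed within 1.5 times their value except as given here and for the libraries left out below. The threshold of an adjusted p under 0.01 with a log2 change above 1 left 24 sites at 6 h and 11 between 6 and 72 h. The 5 kb window, which holds fewer sites, left 24 at 6 h, 35 at 72 h, 22 between 6 and 72 h and 25 body and flank sites at 72 h. Loess offsets gave 16 calls between 6 and 72 h and 4 of 9 start sites at 72 h, and shared-peak factors gave 24 and 5. The cause was not tested.

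Leaving out 1 library gave 32 to 44 calls at 6 h, 50 to 64 at 72 h, 20 to 40 between 6 and 72 h (20 without the first and 22 without the second 72 h library, both beyond 1.5 times), 9 of 9 start sites in each case, and 32 to 44 body and flank sites at 72 h. Where a time was left with 1 library, it was assumed to vary like the others. Same-numbered libraries share only a number (correlations of their deviations 0.082, 0.053 and 0.085), and the replicate block gave 46 calls at 6 h, 64 at 72 h, 38 between 6 and 72 h, 9 start sites and 44 body and flank sites.

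Directions turned for a few named sites. With loess offsets, at 72 h, the values were 0.09 at the stronger UROD start, 0.03 at the CPOX start and 0.02 at the SLC25A37 start, and at 6 h 0.03 at the CPOX start. With shared-peak factors, they were 0.05 at the CPOX start and 0.01 at the CPOX body site 9.68 kb from the start at 6 h, and 0.47 at the ALAD site in BSPRY and 0.22 at the UROD site in ZSWIM5 at 72 h. The ALAD site was 0.00 with total counts. Without the first 0 h library the PPOX site 15.8 kb from the start was −0.08 at 72 h and the late SLC25A37 site −0.10 at 6 h, against 0.67 and 0.99 without the second 0 h library. Without the second 6 h library the late SLC25A37 site was −0.33 at 6 h. Depth limits the weakest sites most: at the ALAS1 and FECH sites with the highest points in the map of distances, the 0 h libraries held 2 counts together.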

Other observations

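In the authors' deposited table the class names of the member sites did not follow the direction of the authors' own log2 fold changes. Of the 7 member sites named upLate in the authors' deposited table, 5 had a negative value at 72 h, and both of the 2 named upEarly did. Over all sites in the authors' deposited table, the 1992 named downLate had a median of 2.30 at 72 h and the 21243 named upLate a median of 2.28. The class names were not used.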
